A study of Mus musculus with 4 samples.

Results

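A set of 41 genes of endothelial identity and angiogenic signalling was measured in kidneys of Th3 and control mice. The genes were chosen by name, and an array probe stood for a gene where the scanner files gave the probe that gene's name. By this rule 39 of the 41 genes had a probe, with 66 probes among them, and 38 could be tested, of 17628 genes tested on the arrays. Sele, the leukocyte adhesion molecule E-selectin, had 1 probe, which was well above background in 0 of 8 samples. Esam and Aplnr had no probe under those names and are described apart, through probes that carry their older names.

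Blood vessels grow and are maintained through a few ligand and receptor systems that act on endothelial cells. The vascular endothelial growth factors (VEGFs) act through the receptor kinases Flt1, Kdr and Flt4, with neuropilins as co-receptors, and the angiopoietins act through the Tie receptor kinases. Notch and ephrin signalling pattern arteries and veins, while endothelin and nitric oxide set vessel tone. In kidney these systems serve the glomerular tuft, the capillaries around the tubules and the vasa recta of the medulla. VEGF-A from podocytes and tubule cells is known to maintain the fenestrated endothelium there.

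Th3 mice carry a deletion that removes both adult beta-globin genes, and serve as a model of beta-thalassemia, a hereditary anaemia. Total kidney RNA from 4 Th3 and 4 control samples was hybridised on 4 two-colour arrays, 1 sample of each group on each. Cy5 marked the Th3 sample on arrays 1 and 2, and the dyes were exchanged on arrays 3 and 4. The labels name the control only as control, and they give neither the sex, the age nor the zygosity of the mice, nor whether each sample came from its own animal. The p-values therefore measure only the spread between these samples on arrays of the same dye orientation. That spread may be technical, and the number of arrays limits the precision. Every ratio is Th3 over control on a log2 scale, so that a value above 0 means more RNA in Th3 kidney. A ± is the SD over 4 arrays, which also holds any difference between the dye orientations. The fit behind the p-values has a dye term, which takes that difference out of their error. Adjusted p-values are from this limma fit to all genes with Benjamini-Hochberg adjustment. A gene passed the test, and is said to have risen or fallen, where that p was under 0.05.

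Signal was well above background for 61.8% to 72.2% of the probes, by sample, and saturation was seen at 0 spots. The deleted adult beta-globin, measured by a probe named Hbb-bt, had log2 ratios of -3.13, -3.16, -3.93 and -4.02 on arrays 1 to 4. The probe may also bind RNA of near-identical globin genes. Arrays of the same dye orientation resembled each other more than arrays of opposite orientation. The correlation of ratios across genes was 0.67 for arrays 1 and 2 and 0.71 for arrays 3 and 4, against 0.43 to 0.53 between these pairs. Dye orientation and the samples of a pair cannot be told apart. The dye term, which holds both, passed for 175 genes (0.993%) and for none of the 38 vascular genes, whose smallest adjusted p for it was 0.169.

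Of the 38 tested genes, 10 rose in Th3 kidney, 1 fell and 27 did not pass, so that 28.9% were called. Over all genes tested 21.5% were called, 10.9% higher and 10.6% lower. The median log2 ratio was 0.07 for the 38 genes and 0.00 for all genes. All 38 genes were well above background in every sample. The genes that rose were, by size of the change, Vwf, Figf, Flt1, Ednra, Edn1, Ednrb, Vegfa, Notch4, Efnb2 and Ephb4, and the gene that fell was Nrp1. The ratio had 1 sign on all 4 arrays for 19 of the 38 genes, against 37.1% of all genes. In 14 of the 19 it was above 0 on each array (19.7% of all genes), and in 5 below 0 on each (17.4% of all genes). In 11 of the 38 the 4 Th3 signals did not overlap the 4 control signals, against 21% of all genes. These were the called genes other than Ephb4, and Angpt1. In RNA of a bulk tissue, fewer or more cells of a type and less or more RNA per cell cannot be told apart.

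**Figure D1:**
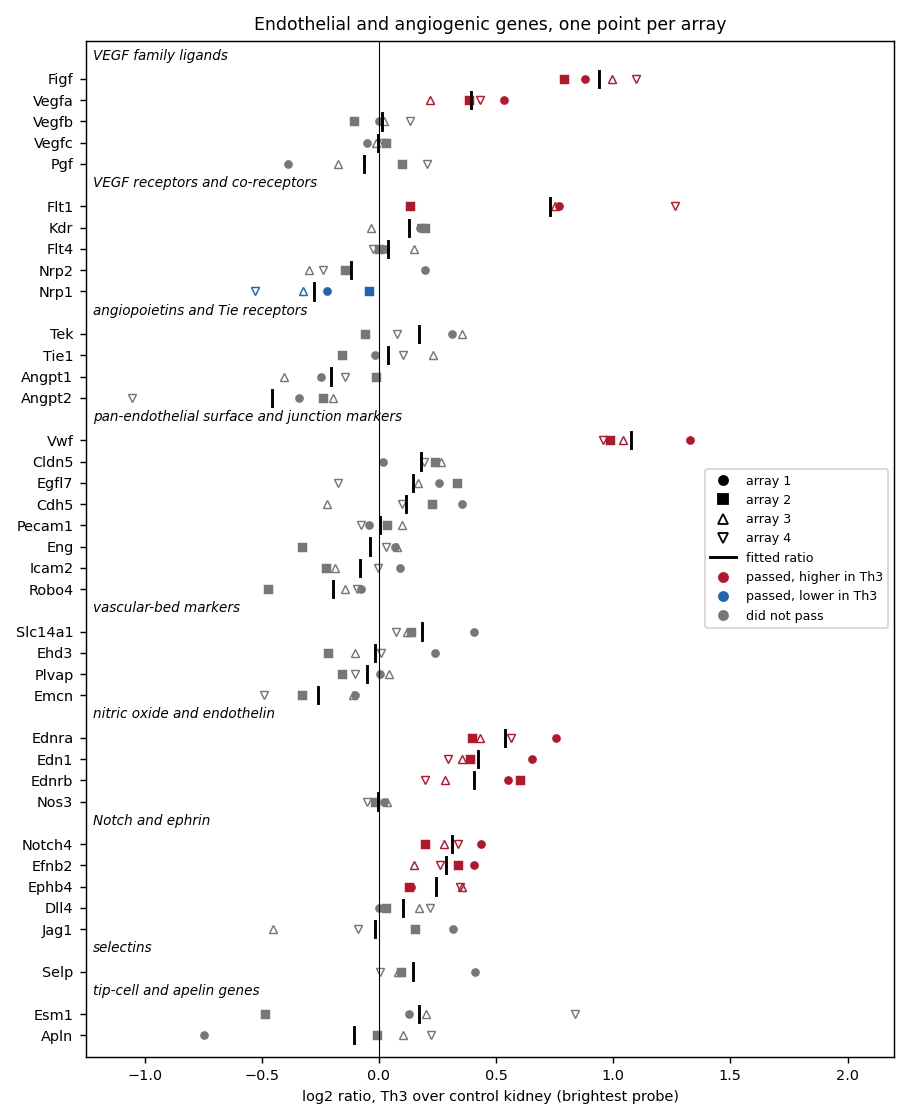
Log2 ratio of Th3 over control kidney for the 38 genes tested, grouped by role, with 1 point per array and a black bar at the fitted ratio; colour marks genes that passed the test. The bars of Vwf and Figf lie farthest right, Angpt2 has the lowest bar, at -0.46, and the points of Angpt1, Angpt2, Emcn and Robo4 lie below 0 on each array without passing the test.

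The start-site regions of the genes that rose were searched for the core letters of the hypoxia response element, the site bound by HIF transcription factors. The letters searched were ACGTG and GCGTG on both strands, and a CACGTG counts on each strand, so that matches can overlap. RefSeq (GRCm38.p6) listed a region from 250 bases before to 50 after a start for 30 of the 41 genes, Slc14a1 aside, and 16 of the 30 had a match. Among the genes that rose, 5 of 10 regions had one, among the tested genes that did not pass 10 of 22, and among all 32851 regions 43.8% (ACGTG 19.6%, GCGTG 32.4%). The share among the genes that rose was near that of all regions. A match describes letters only and is not evidence of binding. The regions of the 4 genes that rose the most among those with a match are shown so that the position of the letters can be seen, with matches in capitals, 5′ to 3′ on the gene's strand and cut at 30 bases after the start.
Flt1: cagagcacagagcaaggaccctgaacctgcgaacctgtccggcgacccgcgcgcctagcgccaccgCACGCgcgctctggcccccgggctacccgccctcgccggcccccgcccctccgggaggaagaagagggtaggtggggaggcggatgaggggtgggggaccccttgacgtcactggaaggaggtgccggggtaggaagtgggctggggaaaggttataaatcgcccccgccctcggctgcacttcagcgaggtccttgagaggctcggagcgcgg
Edn1: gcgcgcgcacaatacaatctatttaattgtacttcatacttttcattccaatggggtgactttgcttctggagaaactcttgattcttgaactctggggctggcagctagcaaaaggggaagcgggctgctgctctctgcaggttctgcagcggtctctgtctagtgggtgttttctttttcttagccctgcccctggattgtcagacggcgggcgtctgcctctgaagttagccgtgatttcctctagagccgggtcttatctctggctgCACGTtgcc
Ednrb: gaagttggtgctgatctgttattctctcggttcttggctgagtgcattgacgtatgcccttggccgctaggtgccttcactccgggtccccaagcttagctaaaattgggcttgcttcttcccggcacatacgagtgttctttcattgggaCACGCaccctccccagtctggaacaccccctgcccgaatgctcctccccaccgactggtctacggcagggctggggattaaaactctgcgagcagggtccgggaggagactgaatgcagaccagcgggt
Vegfa: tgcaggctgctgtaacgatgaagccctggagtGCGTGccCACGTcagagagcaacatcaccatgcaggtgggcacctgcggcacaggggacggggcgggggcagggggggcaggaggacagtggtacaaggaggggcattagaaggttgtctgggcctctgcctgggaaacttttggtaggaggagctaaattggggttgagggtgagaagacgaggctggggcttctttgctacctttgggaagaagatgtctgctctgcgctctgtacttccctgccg
These are chr5:147725982-147726261 on the minus strand for Flt1, chr13:42301226-42301505 on the plus strand for Edn1, chr14:103843672-103843951 on the minus strand for Ednrb and chr17:46025134-46025413 on the minus strand for Vegfa. The match began 184 bases before the start in Flt1 and 21 bases after it in Edn1. In Ednrb the first of 2 matches began 99 bases before the start and the last 31 bases after it, beyond the bases shown. In Vegfa the 2 matches began 218 and 211 bases before an alternative start inside the gene. The upstream Vegfa start listed by RefSeq had no match.

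Among the 5 VEGF ligands, Figf and Vegfa rose and Vegfb, Vegfc and Pgf did not pass. Figf, now named Vegfd, encodes VEGF-D, a ligand of the receptor Flt4. Its normalized log2 signals were 11.12, 11.04, 11.15 and 11.42 in Th3 and 10.24, 10.25, 10.16 and 10.32 in control samples on arrays 1 to 4, with no overlap. The log2 ratios were 0.88, 0.79, 1.00 and 1.10, and the mean was 0.94 ± 0.13, a 1.92-fold level (adjusted p = 0.000513). The spread of Figf over the arrays was small beside its change, and the call held under each of the 19 alternative settings. The probe lies at chrX:159746568-159746627 on build mm8 of the array annotation. For this and all other probes the exon or untranslated region was not analysed here.

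Vegfa encodes VEGF-A, the ligand of Flt1 and Kdr that drives most angiogenesis. Its brightest probe (chr17:45481019-45481078, mm8) gave Th3 signals of 12.93, 12.83, 12.62 and 12.75 and control signals of 12.40, 12.45, 12.40 and 12.32. All 4 Th3 samples lay above all 4 control samples. The ratios were 0.54, 0.39, 0.22 and 0.43, with a mean of 0.39 ± 0.13, or 1.31-fold (adjusted p = 0.00903). The other 2 Vegfa probes did not show the same. A probe printed in 10 spots, 1.1 kb away, had a log2 ratio of -0.10 (adjusted p = 0.347 over all probes). The probe 8.0 kb away had 0.17 (adjusted p = 0.134). With the mean of the 3 probes Vegfa no longer passed, at 0.15 (adjusted p = 0.130).

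The remaining VEGF ligands lay close to 0. Vegfc, the lymphatic growth factor that also binds Flt4, had ratios of -0.05, 0.03, -0.01 and 0.02. Its 95% interval ran from -0.13 to 0.12. Vegfb, a ligand of Flt1, stood at 0.01 (95% interval -0.12 to 0.14). Pgf, placental growth factor and also a ligand of Flt1, stood at -0.06 with arrays on both sides of 0 (95% interval -0.30 to 0.17).

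Of the 5 VEGF receptors and co-receptors, Flt1 rose, Nrp1 fell, and Kdr, Flt4 and Nrp2 did not pass. Flt1 encodes VEGF receptor 1, which binds VEGF-A tightly and in a soluble form holds it back from Kdr. The Th3 signals of its brightest probe (chr5:147872564-147872623, mm8) were 13.56, 13.05, 13.32 and 13.66, and the control signals were 12.79, 12.91, 12.57 and 12.40. The groups did not overlap, but array 2 had the lowest Th3 and the highest control signal. The ratios were 0.77, 0.13, 0.75 and 1.26, with a mean of 0.73 ± 0.46, or 1.66-fold (adjusted p = 0.0106). Arrays 1 and 2 averaged 0.45, and arrays 3 and 4 averaged 1.01. With the pairs of arrays as a random block the adjusted p was 0.0571, so that Flt1 did not pass there.

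Both other Flt1 probes passed in the same direction. The probe 0.1 kb away had a ratio of 0.56 (adjusted p = 0.0149 over all probes). The third, 76 kb away on the genome and designed on another Flt1 transcript record, had 0.92, 0.75, 0.76 and 1.03 on the arrays. Its mean was 0.86 ± 0.14 (adjusted p = 0.0018 over all probes), with array 2 close to the rest. A further 2 Flt1 probes were left out because neither group had all 4 samples well above background. Which Flt1 transcripts the probes detect was not analysed here.

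Kdr encodes VEGF receptor 2, the main signalling receptor of VEGF-A. Its Th3 signals were 11.68, 11.64, 11.55 and 11.67 and its control signals 11.50, 11.44, 11.59 and 11.48. The Th3 sample was the higher on arrays 1, 2 and 4 and slightly the lower on array 3. The ratio of 0.13 ± 0.11 did not pass (adjusted p = 0.169, 95% interval -0.01 to 0.27). Flt4, the receptor of the lymphatic ligands, stood at 0.04 with a 95% interval of -0.10 to 0.17.

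Nrp1, a co-receptor for VEGF-A and semaphorins, had Th3 signals of 8.46, 8.51, 8.45 and 8.39 and control signals of 8.68, 8.56, 8.78 and 8.92 (chr8:131388840-131388899, mm8). Each control sample lay above each Th3 sample, most narrowly on array 2. The ratios were -0.22, -0.04, -0.32 and -0.53, with a mean of -0.28 ± 0.20 (adjusted p = 0.0256), which is 82.4% of control. Neither other Nrp1 probe passed, at -0.12 and 0.03. The call was lost in 6 of 19 alternatives, among them the random block (adjusted p = 0.120), the mean of the probes (-0.12, adjusted p = 0.152) and the fits without array 1 (adjusted p = 0.111) or array 4 (adjusted p = 0.0724). Nrp2, the co-receptor for lymphatic VEGF signalling, stood at -0.12 and was above 0 on array 1 alone.

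**Figure D2:**
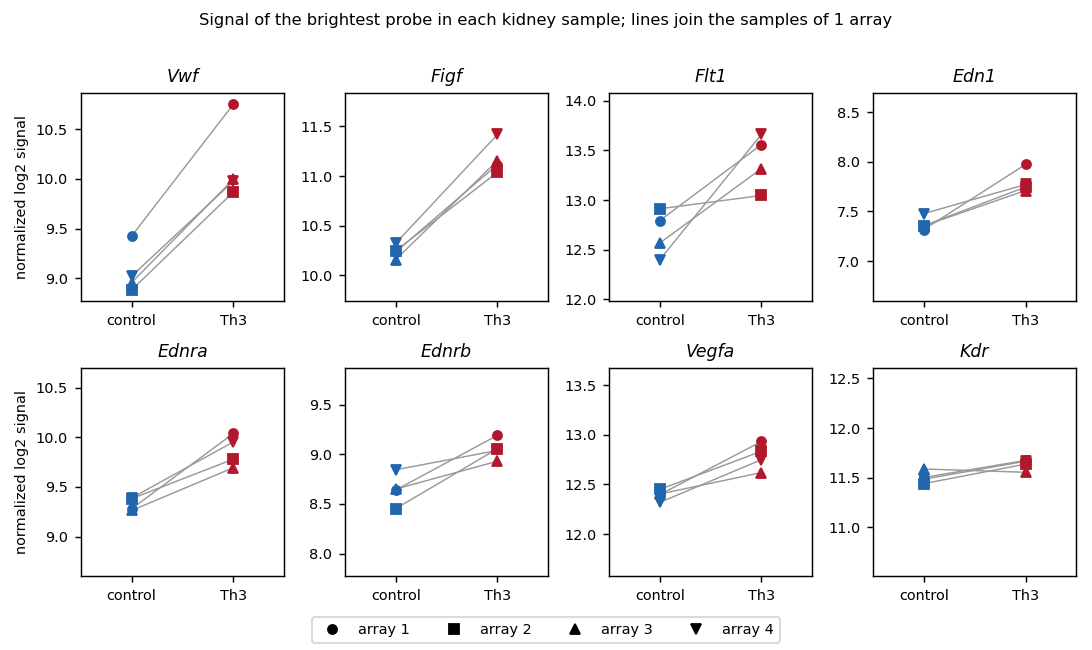
Normalized log2 signal of the brightest probe in each control and Th3 kidney sample for 8 genes, with lines joining the samples of 1 array; each panel spans the same height of the log2 scale. Vwf and Figf rise by similar steps on the 4 arrays, Flt1 is nearly level on array 2, and the Kdr lines are nearly flat.

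None of the 4 angiopoietin and Tie genes passed. Angpt2, released by activated endothelium and an antagonist of Angpt1 in many settings, had Th3 signals of 10.81, 10.49, 10.50 and 10.02 and control signals of 11.15, 10.73, 10.69 and 11.07. The groups overlapped, although Th3 was the lower on each array. The ratios were -0.34, -0.24, -0.20 and -1.05, so that array 4 stood apart, and the mean of -0.46 ± 0.40 had an adjusted p of 0.0504 (95% interval -0.77 to -0.15). Without array 1, 2 or 3 it passed, with ratios from -0.67 to -0.43. It also passed in 5 other alternatives.

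Angpt1, the agonist of the Tek receptor, had Th3 signals of 6.62, 6.74, 6.64 and 6.73 and control signals of 6.87, 6.75, 7.05 and 6.88. Its groups did not overlap, but array 2 was level, and the ratio of -0.20 ± 0.17 had an adjusted p of 0.0863. Angpt1 passed in 4 alternatives, at -0.61 with Agilent's processed signals, -0.33 in the authors' deposited log2 ratios and -0.20 with separate channels or an intensity trend. The second Angpt1 probe had -0.18. Of the receptors, Tek stood at 0.17 (adjusted p = 0.184) and Tie1 at 0.04 (adjusted p = 0.664).

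Among 8 tested pan-endothelial surface and junction genes, Vwf rose and the other 7 did not pass. Vwf encodes von Willebrand factor, the glycoprotein that tethers platelets to injured vessel wall and is made by endothelial cells and megakaryocytes. Its Th3 signals were 10.75, 9.87, 10.00 and 9.98 and its control signals 9.43, 8.88, 8.96 and 9.02 (chr6:125652152-125652211, mm8). Both samples of array 1 were the brightest of their group, and the groups did not overlap. The ratios were 1.33, 0.99, 1.04 and 0.96, with a mean of 1.08 ± 0.17, or 2.11-fold (adjusted p = 0.000728), the largest ratio among the 38 genes. Its 95% interval of 0.91 to 1.25 overlapped that of Figf, 0.81 to 1.07. A second Vwf probe, 0.7 kb away, had 1.20, 0.52, 0.72 and 0.60, and its mean of 0.76 passed as well (adjusted p = 0.0081 over all probes). The call held under all 19 alternatives, with ratios from 0.92 to 1.23.

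Platelet and megakaryocyte markers were read beside Vwf, since those cells also make it. Of 9 tested, 5 rose and none fell (55.6% called, against 21.5% of all genes), with a median log2 ratio of 0.25. Their summed signal was 1860 to 2330 in Th3 and 1430 to 1760 in control samples. The largest increases were those of Ppbp (0.76, adjusted p = 0.006) and Pf4 (0.56, adjusted p = 0.007), chemokines of platelet granules. The ratios of Pf4 were 1.29 and 0.86 on arrays 1 and 2 and -0.02 and 0.11 on arrays 3 and 4, where Vwf was 1.04 and 0.96. The other markers that rose, Ppbp, Gp9, Treml1 and Clec1b, were above 0 on each array. On arrays 3 and 4 Ppbp had 0.63 and 1.02 and Gp9 0.43 and 0.76. The 4 markers that did not pass had arrays on both sides of 0. Itga2b, the platelet integrin chain that defines the lineage, stood at 0.02 and did not pass, and no tested marker was at 0 in signal. The part of platelet RNA in the Vwf result was not tested.

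The other junction and surface genes showed small ratios. Pecam1, the CD31 antigen, had -0.04, 0.03, 0.10 and -0.08 on the arrays, with a 95% interval of -0.13 to 0.14. Cdh5, the endothelial cadherin, had 0.36, 0.22, -0.22 and 0.10. Cdh5 was therefore above 0 on arrays 1 and 2 and on both sides of 0 on arrays 3 and 4, and its mean of 0.11 had a 95% interval of -0.05 to 0.28. Claudin-5 (Cldn5, 0.18, adjusted p = 0.0814) was above 0 on each array, and the guidance receptor Robo4 (-0.20, adjusted p = 0.112) was below 0 on each. Egfl7, a secreted endothelial factor, stood at 0.15, Eng, a TGF-beta co-receptor, at -0.04 and Icam2, an adhesion molecule, at -0.08. The label of the gene set was checked on Vwf, Flt1, Pecam1, Cdh5, Kdr and Tie1, all well above background in every sample; of these Vwf and Flt1 passed, and the other 4 had ratios from 0.00 to 0.13.

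Esam, an adhesion molecule of endothelial junctions, was found through its accession under the name Esam1. It stood at -0.07 (adjusted p = 0.368).

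No gene of the 4 vascular-bed markers passed. Emcn, a sialomucin of capillary and venous endothelium, was below 0 on each array, with -0.10, -0.33, -0.11 and -0.49 and a mean of -0.26 ± 0.19 (adjusted p = 0.0634). It passed without array 1 (-0.32, adjusted p = 0.0371) and without array 3 (-0.35, adjusted p = 0.0347). With separate channels and all 4 arrays Emcn passed as well (-0.26, adjusted p = 0.0418). Ehd3, which marks glomerular endothelium, stood at -0.02 (95% interval -0.22 to 0.18). Plvap, which forms the diaphragms of fenestrated capillaries, stood at -0.05 (95% interval -0.19 to 0.09). Slc14a1, the urea transporter of the descending vasa recta and of red cells, had 2 probes that went opposite ways. The brighter had 0.18 (adjusted p = 0.0926 over all probes) and the dimmer -0.23 (adjusted p = 0.0304 over all probes), so no direction is given for this gene.

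Of the 4 endothelin and nitric oxide genes 3 rose, all of the endothelin system (75% called, against 21.5% of all genes). Edn1 encodes endothelin-1, a vasoconstrictor peptide of endothelium and collecting duct. Its Th3 signals were 7.97, 7.75, 7.71 and 7.77 and its control signals 7.32, 7.36, 7.36 and 7.48 (chr13:42318704-42318763, mm8), with no overlap. The ratios were 0.65, 0.39, 0.36 and 0.29, with a mean of 0.42 ± 0.16, or 1.34-fold (adjusted p = 0.00744). The size for this dim probe depended on the background correction. It was 0.77 with plain subtraction, 0.75 with Agilent's processed signals and 0.63 in the authors' deposited log2 ratios, and the gene passed in each.

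Ednra encodes the endothelin receptor of vascular smooth muscle. Its Th3 signals of 10.04, 9.78, 9.69 and 9.95 all lay above the control signals of 9.28, 9.38, 9.26 and 9.39 (chr8:80559158-80559217, mm8). The ratios were 0.76, 0.40, 0.43 and 0.56, with a mean of 0.54 ± 0.16, or 1.45-fold (adjusted p = 0.00597). A second probe, 6.7 kb away, passed with 0.34 (adjusted p = 0.0349 over all probes).

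Ednrb encodes the endothelin receptor of endothelium and collecting duct. Its Th3 signals were 9.19, 9.06, 8.93 and 9.04 and its control signals 8.64, 8.45, 8.65 and 8.84 (chr14:102700946-102701005, mm8). The groups did not overlap, although the control sample of array 4 came close. The ratios of 0.55, 0.60, 0.28 and 0.20 gave a mean of 0.41 ± 0.20, or 1.33-fold (adjusted p = 0.00523). In the second probe, 1.8 kb away, array 4 was instead the highest at 0.66, and its mean of 0.40 passed (adjusted p = 0.0159 over all probes). Ednra and Ednrb kept their calls under all 19 alternatives.

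Nos3, the endothelial nitric oxide synthase, did not follow the endothelin genes. Its ratios were 0.02, -0.02, 0.03 and -0.05, and the 95% interval ran from -0.13 to 0.12. Of 12 tested endothelin and nitric oxide genes not on the list, 2 rose and none fell (16.7% called, against 21.5% of all genes). The median of the 12 was 0.07. Those that rose were Edn3, a further endothelin (0.23, adjusted p = 0.031), and Gucy1b1, a subunit of the nitric oxide receptor guanylate cyclase (0.19, adjusted p = 0.041). Edn3 was well above background in 3 of 4 control samples.

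Pericyte and smooth muscle markers were read beside Ednra, which those cells express. Of 13 tested, 6 rose and 1 fell (53.8% called, against 21.5% of all genes), with a median of 0.27. Their summed signal was 40900 to 44700 in Th3 and 29600 to 35100 in control samples. Kcnj8, a potassium channel subunit of pericytes, had ratios of 1.88, 1.96, 2.37 and 2.26, or 4.34-fold on average. Rgs5, a signalling regulator of pericytes, had 1.39, 1.51, 1.32 and 1.37. Both were larger changes than that of any of the 38 genes. Acta2 and Myh11, the contractile proteins that define smooth muscle, stood at 0.04 and 0.27 and did not pass, while the actin-binding Tagln fell by 0.22. The part of these cells in the Ednra result was not tested.

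Of the 5 Notch and ephrin genes 3 rose (60% called, against 21.5% of all genes), with mean ratios from 0.24 to 0.31. Notch4 is the Notch receptor found mainly in endothelium. Its Th3 signals of 10.48, 10.31, 10.29 and 10.37 lay above the control signals of 10.05, 10.11, 10.01 and 10.04 (chr17:34196231-34196290, mm8). The ratios were 0.43, 0.20, 0.28 and 0.34, with a mean of 0.31 ± 0.10, or 1.24-fold (adjusted p = 0.0165). Without array 1 Notch4 did not pass (0.25, adjusted p = 0.0767).

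Efnb2 encodes ephrin-B2, the arterial ligand of the venous receptor Ephb4. Its Th3 signals were 10.59, 10.34, 10.20 and 10.19 and its control signals 10.18, 10.00, 10.05 and 9.93 (chr8:8618149-8618208, mm8). The lowest Th3 sample lay just above the highest control sample. The ratios were 0.41, 0.34, 0.15 and 0.26, with a mean of 0.29 ± 0.11, or 1.22-fold (adjusted p = 0.0143). It did not pass with the random block (adjusted p = 0.0584) or without array 1 (adjusted p = 0.0572), and its dimmer probe had 0.12 (adjusted p = 0.166 over all probes).

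Ephb4 had Th3 signals of 9.70, 9.51, 9.58 and 9.62 and control signals of 9.56, 9.38, 9.22 and 9.27 (chr5:137603849-137603908, mm8). The control sample of array 1 lay above the Th3 sample of array 2, so that the groups overlapped. The ratios were 0.14, 0.13, 0.36 and 0.35, with a mean of 0.24 ± 0.13, or 1.18-fold (adjusted p = 0.0203). The call was lost in 5 of 19 alternatives: no dye term, the random block, the mean of the probes, and the fits without array 1 or without array 2, with adjusted p from 0.0663 to 0.113. The second Ephb4 probe had 0.00.

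The Notch ligands on the list, Dll4 and Jag1, did not pass. Dll4, the tip-cell ligand, stood at 0.10 and was above 0 on each array (adjusted p = 0.196). Jag1 had 0.32 and 0.16 on arrays 1 and 2 and -0.45 and -0.09 on arrays 3 and 4. Its adjusted p for the dye term was the 0.169 given above, the smallest of the 38 genes. Of 14 tested Notch genes not on the list, 2 rose and 3 fell (35.7% called, against 21.5% of all genes), with a median of 0.06. Hey1, a transcriptional target of Notch in endothelium, rose by 1.03 ± 0.29 (2.04-fold, adjusted p = 0.002) and its relative Hey2 by 0.24. Heyl, of the same family, fell by 0.41 and Mfng, a glycosyltransferase that modifies Notch, by 0.34. The Notch ligand Dll1 fell as well, at -0.34 (adjusted p = 0.015), and was below 0 on each array.

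Selp, the platelet and endothelial P-selectin, had 0.41, 0.09, 0.08 and 0.01 on the arrays and did not pass (0.15, adjusted p = 0.171). This dim gene passed at 0.52 with Agilent's processed signals, 0.46 with plain background subtraction and 0.29 in the authors' deposited log2 ratios. Esm1, the tip-cell proteoglycan endocan, had 0.13, -0.48, 0.20 and 0.84, the widest spread of the 38 genes. Its 95% interval ran from -0.15 to 0.49. Apln, the ligand apelin, had -0.75 on array 1 and -0.01, 0.10 and 0.22 on the others, with a mean of -0.11 (95% interval -0.38 to 0.17).

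The receptor of apelin, Aplnr, was measured by a probe named Agtrl1 that was matched through its accession (chr2:84940320-84940379, mm8). Aplnr guides venous and tip-cell endothelium. Its ratios were -0.90, -0.52, -0.87 and -1.01, below 0 on each array, and the mean was -0.82 ± 0.21, or 56.5% of control (adjusted p = 0.00192). It passed under all 19 alternatives, with ratios from -1.30 to -0.73. A second probe of that name was well above background in 2 samples of each group and was not tested. Since Aplnr did not meet the naming rule, it is in none of the counts of 38.

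Where a gene had several probes above background, they could be set against each other. This held for 14 of the 38 genes, and none had probes that passed in opposite directions. Of the 11 called genes 8 had such probes, and in Vwf, Flt1, Ednra and Ednrb every further probe passed the same way. In Vegfa, Efnb2, Ephb4 and Nrp1 no further probe passed. For Figf, Edn1 and Notch4 there was 1 probe.

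**Figure D3:**
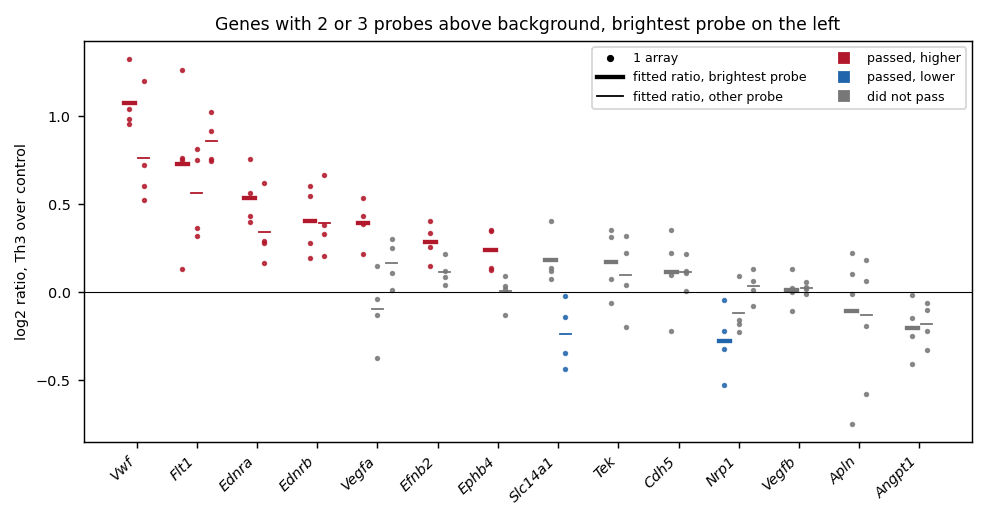
Log2 ratio of Th3 over control for every kept probe of the 14 genes with 2 or more, the brightest probe leftmost, with 1 point per array and a bar at the fitted ratio. All probes of Vwf, Flt1, Ednra and Ednrb lie above 0, while Vegfa, Nrp1 and Slc14a1 have probes on both sides of 0.

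The authors' deposited table gave signed folds of the same direction for the brightest probe of each called gene. In the authors' deposited table these were 2.27 for Vwf, 1.96 for Figf, 1.66 for Flt1, 1.55 for Edn1, 1.48 for Ednra, 1.40 for Ednrb and 1.31 for Vegfa. The authors' deposited table gave 1.24 for Notch4, 1.23 for Efnb2, 1.20 for Ephb4 and -1.24 for Nrp1, with adjusted p-values of 0.0444, 0.0537, 0.105 and 0.078. For Aplnr the fold in the authors' deposited table was -2.18. These folds come from the same 4 arrays and are no independent measurement.

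Of 25 tested VEGF, angiopoietin and guidance genes not on the list, 4 rose and 2 fell, with a median of 0.03. The 24% called was near the 21.5% of all genes. The vasodilator peptide adrenomedullin (Adm) rose by 0.69 ± 0.41 and the semaphorin Sema3g by 0.39 ± 0.07. The growth factor Fgf1 fell by 0.43 and the angiopoietin-like Angptl2 by 0.27. Of 15 BMP, TGF-beta and sphingosine-phosphate genes, 3 rose and 2 fell (33.3% called). The sphingosine-phosphate receptors S1pr1 (0.50) and S1pr3 (0.35) led the increases, and Id2, a BMP target, fell by 0.36 and the receptor Acvrl1 by 0.25.

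Of 20 endothelial transcription factors 5 rose and none fell, and the 25% called was near the 21.5% of all genes. One of the 5, Lyl1, had 0.55 and 0.55 on arrays 1 and 2 but -0.20 and -0.12 on arrays 3 and 4. The increases were led by Sox17, a factor of arterial endothelium (0.65 ± 0.34, adjusted p = 0.004), and Tal1, a factor of blood and endothelial lineages (0.47 ± 0.08, adjusted p = 0.004). Of 33 endothelial surface and junction genes not on the list, 10 rose and 4 fell (42.4% called). Gpihbp1, which carries lipoprotein lipase to the capillary lumen, rose by 1.11 ± 0.04 and was 2.16-fold higher, a ratio close to that of Vwf. The arterial connexin Gja4, which is on the pericyte list as well, rose by 0.53. Vcam1, a leukocyte adhesion molecule, fell by 0.70 and Ly6a, a surface antigen of many vascular and blood cells, by 0.32. Of 6 lymphatic endothelial markers 1 rose (16.7% called, against 21.5% of all genes), the matrix protein Mmrn1 (0.26).

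Markers of other kidney and blood cells were measured in the same way. Leukocyte markers fell for 11 of 14 tested (78.6% called lower, against 10.6% of all genes), with a median of -0.45. Their summed signal was 14300 to 25800 in Th3 and 17600 to 40800 in control samples. The pair of arrays 1 and 2 had a median of -0.09, and the pair of arrays 3 and 4 one of -0.73. Itgax, a dendritic cell integrin, fell by 0.99. Lysozyme Lyz2 passed at -0.64 but had 0.45 and 0.15 on arrays 1 and 2 and -1.28 and -1.86 on arrays 3 and 4. Vcam1 had -0.36 and -0.36 on the first pair and -0.95 and -1.15 on the second. The part of leukocyte RNA in any of the lower vascular genes was not tested.

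Of 11 markers of podocytes, cells that make VEGF-A, 1 rose and 2 fell (27.3% called, against 21.5% of all genes). Their summed signals were 22700 to 24400 in Th3 and 21400 to 25500 in control samples. Nphs1, a slit diaphragm protein that defines podocytes, stood at -0.17 and did not pass. The transcription factor Tcf21 fell by 0.88 and the cell cycle inhibitor Cdkn1c by 0.35. Cdkn1c had -0.03 and -0.03 on arrays 1 and 2 and -0.65 and -0.70 on arrays 3 and 4. Proximal tubule markers fell for 6 of 10 (60% called lower, against 10.6% of all genes). The decreases were led by the organic anion transporter Slc22a6 (fell by 0.80) and the scaffold protein Pdzk1 (fell by 0.61). None of 8 thick ascending limb and thin limb markers passed.

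Adipose markers varied between samples, with summed signals of 75300 to 100000 in Th3 and 35000 to 132000 in control samples. Adiponectin (Adipoq) rose by 1.00 ± 1.02 and resistin (Retn) by 0.64, while the brown-fat genes Ucp1 and Cidea fell by 3.40 and 1.11. Adipoq had 1.29, 1.88 and 1.31 on arrays 1 to 3 but -0.47 on array 4. The part of attached fat in the vascular results was not tested. Of 10 red-cell markers 6 rose and 2 fell (80% called, against 21.5% of all genes). Rhd (0.94) and Kel (0.49), surface antigens of red cells, led the increases, and their control samples were well above background on 1 and 3 of 4 arrays. The alpha-globin Hba-a1 fell by 0.42.

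**Figure D4:**
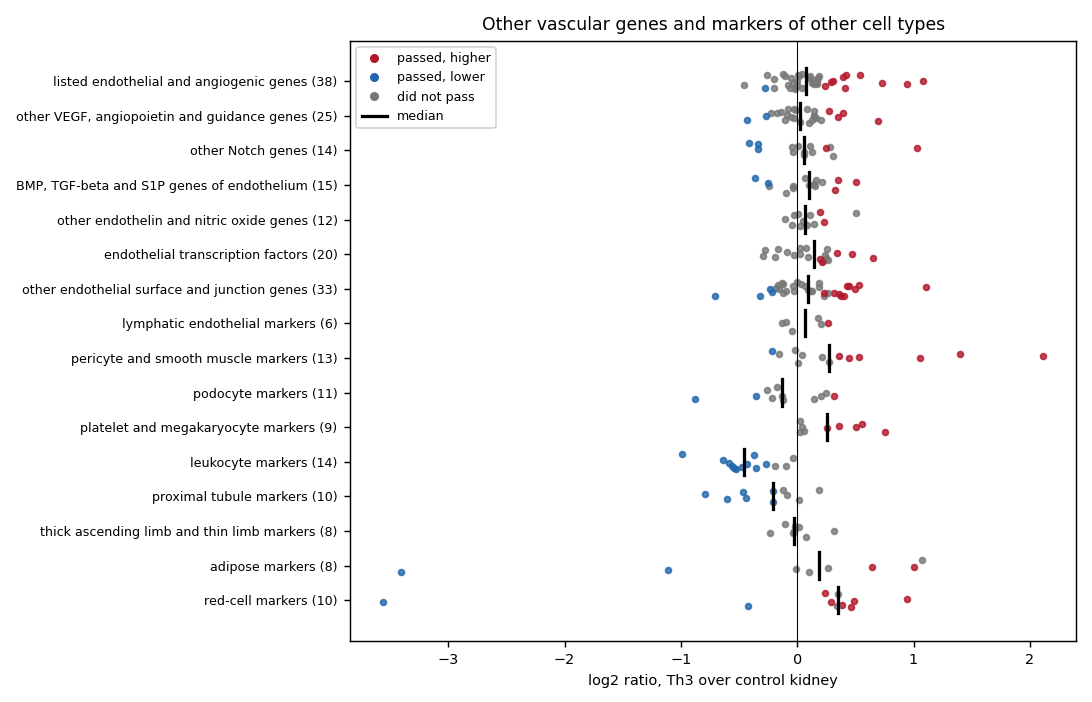
Log2 ratio of Th3 over control for the 38 endothelial and angiogenic genes in the top row and for 15 other gene lists below, with the number of genes tested in brackets, 1 point per gene and a bar at the median. The pericyte row reaches farthest right with Kcnj8 at 2.12, and most leukocyte points lie below 0.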

How the data were processed

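Kidney RNA of 4 Th3 and 4 control samples was compared on 4 two-colour arrays. Per the file headers, the scanner files hold intensities of spots and local background (Agilent Feature Extraction 9.5.3.1), processed intensities and a log10 ratio, which served to check directions, and the array annotation is on mm8. For each array the authors deposited log2 ratios, Th3 over control, and for each probe a signed fold (a score of unstated rule) and an adjusted p-value of an unnamed test. How these were normalized is not given here.

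Signals were corrected with normexp (offset 50) and normalized within arrays by loess (span 0.3, 4 iterations) in limma 3.58.1 under R 4.3.3. For the signals of single samples, mean spot intensities were also quantile normalized between arrays, which leaves the ratios unchanged. The overlaps between groups and the summed signals rest on these signals. Control and outlier spots (at most 186 on an array) were left out. Kept probes were well above background in all 4 Th3 or all 4 control samples, with values on at least 3 arrays. Of 41174 probes 26434 were kept, and 11 of the 66 probes of the listed genes were not. Each gene was read by its brightest kept probe. Genes were named by RefSeq (GRCm38.p6), mostly by accession. lmFit and eBayes used a Th3 and a dye term, with 2 residual degrees of freedom. This fit, and none of the steps before it, was tested on simulated log2 ratios.

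The members, gene lists, tests and alternatives were chosen with earlier results of these data known. Every member was accounted for; per-array values were given for those that passed with 1 sign on 4 arrays, and of each other list up to 2 called genes in each direction were named. Results of some list genes are left out here. Others named for contrast were chosen after their values were seen. The 4 arrays lay on 1 slide scanned once, so slide and scan were no batches. Alternatives changed the background correction, normalization, filter, outlier spots, dye term, channels, weights, empirical Bayes or probe rule, used the authors' values, or left out 1 array.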

Additional observations from a re-analysis of the deposited data

Results flagged for a closer look

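In 4 of 40 vascular genes with a value on each array, 1 array stood apart from the other 3 by more than Dixon's test allows at its 95% level. Chance flags about 1 in 20 such groups. Kdr, the main VEGF-A receptor, had a log2 ratio of -0.034 on array 3 and 0.17 to 0.20 on the other arrays. Angpt2 had -1.05 on array 4 and -0.34 to -0.20 on the others. Eng had -0.33 on array 2 and 0.03 to 0.08 on the others. Robo4 had -0.47 on array 2 and -0.14 to -0.08 on the others. None of the 4 genes passed the test.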

How the results depend on the processing

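The 11 called vascular genes and Aplnr were refitted under 19 alternatives, and none reversed; genes of the other lists were not refitted one by one. Vwf, Figf, Edn1, Ednra, Ednrb and Aplnr passed in each, while Flt1, Vegfa and Notch4 lost their call in 1, Efnb2 in 2, Ephb4 in 5 and Nrp1 in 6. The number of vascular genes that rose stayed between 7 and 12, against 10. The number that fell, 1 by the chosen settings, was 0 with median centring, without the dye term, with the random block and with the mean of kept probes. It was 2 with Agilent's processed signals, with array weights and with both channels required above background. It was 3 with an intensity trend and robust variances and in the authors' deposited log2 ratios, and 5 with separate channels. Leaving out 1 array gave 0 to 3. Besides Nrp1, the genes that fell in an alternative were Angpt1, Angpt2, Apln, Emcn and Robo4; without array 2 Apln had -0.29 (adjusted p = 0.0369), and without array 1 Robo4 had -0.30 (adjusted p = 0.0355). Selp, Cldn5 and Kdr rose in at least 1 alternative. The median of the vascular genes was 0.13 with Agilent's processed signals and between 0.039 and 0.11 in the other alternatives. Over all genes 1927 rose and 1866 fell; 1938 and 1144 did with median centring (62.9% of calls higher against 50.8%), 1102 and 888 without the dye term, 645 and 554 with the random block, and 2982 rose with separate channels. The cause of these differences was not tested. A fit without 1 array leaves a lone array in a dye orientation, which is assumed to vary like the others. For vascular genes that did not pass, the 95% interval reached 0.17 to either side of the ratio in the median and 0.32 at most. In simulated data for this comparison, over 17628 genes, 100 genes were changed by 0.5 and 100 by 1 on the log2 scale. Of these changes 54% and 79% were called. In the real data 21.5% of genes were called, and the adjustment is less strict where more genes change. The simulated shares may therefore be too low for the real fit, although real differences can still be missed with 4 arrays.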
